A study of Larimichthys crocea with 4 samples.

Results

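The conjugation enzymes described here are the transferases that attach glutathione, glucuronic acid or sulfate to other molecules in large yellow croaker (Larimichthys crocea) liver. Members were the assembled transcripts (unigenes) whose KEGG orthology definition named a glutathione S-transferase, a glucuronosyltransferase or a sulfotransferase, without names that contained heparan, chondroitin, carbohydrate, galactosylceramide, tyrosyl or galactosylprotein. This gave 53 of 57216 unigenes, which fall under 8 of 5470 KEGG orthology numbers. Of these, 4 numbers with 44 unigenes are conjugation enzymes of small molecules: glutathione S-transferase (GST, K00799, 18 unigenes), GST kappa 1 (K13299, 1 unigene), UDP-glucuronosyltransferase (UGT, K00699, 21 unigenes) and alcohol sulfotransferase (SULT, K01015, 4 unigenes). The words of the rule also kept 4 numbers with 9 unigenes that act on proteins or on the sugar chains of proteoglycans. These are protein-tyrosine sulfotransferase, dermatan 4-sulfotransferase 1, N-acetylgalactosamine 4-sulfate 6-O-sulfotransferase and the glucuronosyltransferase B3GAT3, and they are given apart.

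Liver RNA of 4 groups of fish was sequenced, with 1 library in each group. The normal feeding library came from untreated fish and served as the control for each of the others. The fasting library came from fish left wholly without food for 21 d, and per the study's methods 6 fish stood behind each of these libraries. The cold stress and thermal stress libraries came from fish exposed for 12 h, and neither their temperatures nor their numbers of fish are given in the sources used here.

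Conjugation is the second phase of detoxification in liver. GSTs join the tripeptide glutathione to reactive electrophiles, UGTs of the endoplasmic reticulum transfer glucuronic acid from UDP-glucuronic acid to bilirubin, steroids, bile acids and foreign phenols, and cytosolic SULTs transfer sulfate from the donor PAPS to alcohols, steroids and phenols. The products are more soluble in water and leave the hepatocyte through efflux pumps into bile or blood. Each family holds classes with different preferred substrates, and close copies of a gene can be hard to separate in an assembly made without a genome.

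Fragments counted on unigenes came to 17.5 M (1 M is 1000000) in the normal feeding library, 19.5 M in fasting, 17.0 M in cold stress and 17.9 M in thermal stress. The members took 0.108% of them in normal feeding, 0.156% in fasting, 0.0848% in cold stress and 0.0859% in thermal stress. Ratios are fragments per library total over the normal feeding library, with a 95% exact interval that covers counting error only. A member was called higher or lower where it differed by 2-fold or more with p under 0.05, not adjusted, in a two-sided exact binomial test, which compares 2 libraries and not 2 conditions. No spread between fish or libraries can be estimated, and the 3 comparisons share the normal feeding library. Scaling by TMM factors moved every log2 ratio by 0.12 in fasting, -0.21 in cold stress and 0.15 in thermal stress, and median-of-ratios factors moved them by 0.18, -0.18 and 0.15. In whole liver, fewer cells of a type and less RNA per cell cannot be told apart.

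All 9 hepatocyte markers were found, with a summed share between 9.50% and 12.1% of fragments. Single markers of this list moved in both directions, so the sum cannot show whether the hepatocyte share was steady. From normal feeding to fasting apolipoprotein A-I went from 2.24% to 5.55% and serotransferrin from 5.88% to 2.61%. The 7 exocrine pancreas markers took 3.97% of fragments in normal feeding, 9.90% in fasting, 5.61% in cold stress and 4.08% in thermal stress. The egg envelope (zona pellucida) transcripts took 0.763% in fasting and between 0.00141% and 0.0246% in the other libraries. Of the intestine markers 2 of 3 were found, without villin, and the list took between 0.0260% and 0.0433% of fragments. Of the skeletal muscle markers 2 of 3 were found, without fast skeletal myosin heavy chain. The muscle list took 0.00273% in normal feeding, 0.00139% in fasting, 0.00487% in cold stress and 0.00540% in thermal stress. Red blood cell markers stayed between 0.0223% and 0.0305%. With library totals taken without the pancreas markers, an alternative chosen after the data were seen, the fasting log2 ratios were 0.69 for K00799, 0.80 for K13299, 0.53 for K00699 and 0.32 for K01015, against 0.60, 0.71, 0.44 and 0.23 with full totals. The part of the egg envelope signal in any fasting result was not tested.

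By number, most conjugation enzymes differed from normal feeding by less than 2-fold. In fasting 1 of the 8 numbers was called higher and 0 lower, against 31.0% of all 5459 numbers tested (10.1% higher and 21.0% lower), and it was B3GAT3 with 4 and 15 fragments. In cold stress 2 of the 8 were called higher and 1 lower, against 26.2% of all numbers (17.0% higher and 9.15% lower). In thermal stress 0 of the 8 were called, against 17.4% of all numbers (6.69% higher and 10.7% lower). The median log2 ratio over the 8 numbers was 0.41 in fasting, -0.09 in cold stress and -0.53 in thermal stress, beside -0.21, 0.21 and -0.13 over all numbers. With 8 numbers, each call weighs heavily in such a share, and nothing particular to the members can be read from it.

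**Figure D1:**
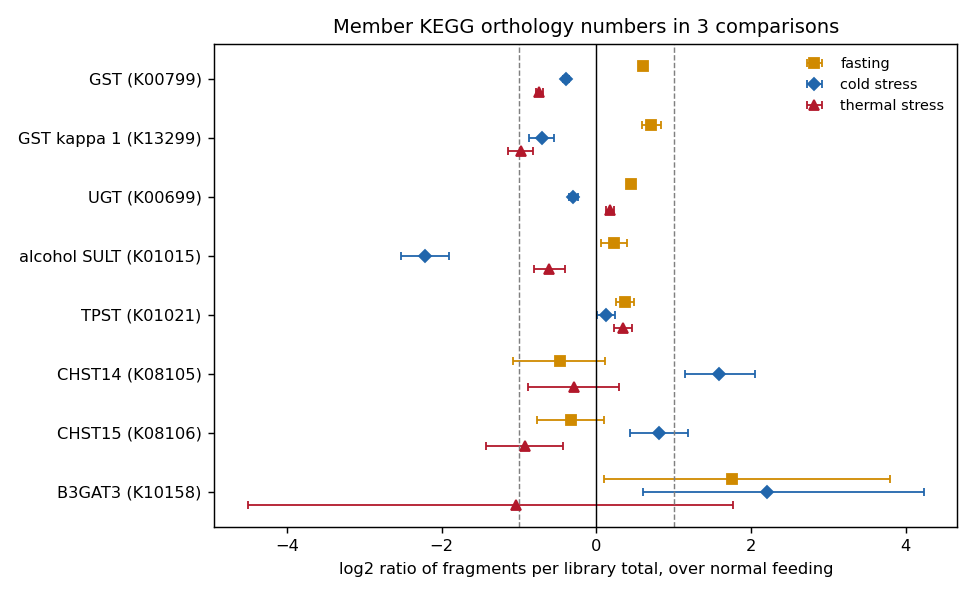
Log2 ratio of fragments per library total over the normal feeding library (horizontal axis) for the 8 member numbers, with bars for the 95% exact counting interval and dashed lines at 2-fold. Alcohol sulfotransferase in cold stress lies at -2.21, while every point of GST, GST kappa 1 and UGT lies inside the 2-fold lines.

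Single unigenes moved further than the totals of their numbers. In fasting 12 member unigenes were called higher and 10 lower of 52 tested, where 31.0% of all 56094 unigenes were called (12.8% higher and 18.2% lower). In cold stress 3 were called higher and 10 lower of 50, against 34.6% of all unigenes (20.8% higher and 13.8% lower). In thermal stress 4 were called higher and 11 lower of 50, against 25.7% (9.60% higher and 16.1% lower), and 5 higher and 8 lower with TMM or median-of-ratios factors. The median log2 ratio of member unigenes was 0.44, -0.35 and -0.56 in fasting, cold stress and thermal stress, against -0.10, 0.18 and -0.19 over all unigenes. A fragment was counted in all 4 libraries for 45 of the 53, and 1 member, the omega GST fragment CL4260.Contig2, had 0 fragments everywhere, which allows up to 3 per library. Member unigenes were 216 to 3641 bp long, and for 27 of them more than 50% of the reads also fitted other places.

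The GSTs were the most abundant conjugation family per unit of length in every library. Their summed FPKM, the deposited level scaled to unigene length and library size, was 637 in normal feeding, 928 in fasting, 469 in cold stress and 381 in thermal stress. The 18 unigenes of K00799 held 10500 fragments in normal feeding, 17766 in fasting, 7782 in cold stress and 6460 in thermal stress. Fasting was the library with the most GST fragments and, with library totals, thermal stress the one with the fewest, at 1.52 times (interval 1.48 to 1.55) and 0.601 times (0.582 to 0.620) the normal feeding share. Neither ratio passed the 2-fold rule, and the direction was the same under TMM, median-of-ratios and pancreas-free scaling. The K00799 log2 ratios of cold and thermal stress were -0.60 and -0.59 with TMM and -0.58 for both with median-of-ratios factors, so the order of the 2 stress libraries rests on the scaling. Microsomal GSTs led in normal feeding with 39.2% of GST FPKM, ahead of theta with 29.9% and alpha with 20.1%, while in fasting theta held 32.7%, alpha 28.4% and microsomal 25.9%. Of the 18 GST unigenes tested in fasting, 6 were called higher and 1 lower. Of the 16 tested in each stress library, 0 were called higher and 2 lower in cold stress, and 1 higher and 4 lower in thermal stress. Over all unigenes 12.8% were called higher and 18.2% lower in fasting, 20.8% and 13.8% in cold stress, and 9.60% and 16.1% in thermal stress. Of the 6 GST unigenes higher in fasting, 4 are low-count rho unigenes, and 3 of these are contigs of 1 cluster, CL1625.

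Alpha-class GSTs are among the main cytosolic GSTs of mammalian liver and reduce lipid peroxides as well as conjugating electrophiles. The single alpha unigene, Unigene4870, had 2375 fragments in normal feeding, 5461 in fasting, 2028 in cold stress and 1917 in thermal stress. It was higher in fasting by 2.06-fold (interval 1.96 to 2.16), so its counting interval reaches under 2-fold, and its ratios in cold and thermal stress were 0.878 and 0.788. None of its reads fitted a second place.

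Theta-class GSTs handle small halogenated and epoxide substrates. The leading theta unigene, Unigene24057, had 2873 fragments in normal feeding, 5131 in fasting, 1996 in cold stress and 1309 in thermal stress. It was lower in thermal stress by 2.25-fold (interval 2.11 to 2.40), while its fasting ratio of 1.60 was not called. The theta unigenes Unigene8110 and Unigene29353 had 492 and 84 fragments in normal feeding and 847 and 137 in fasting, and neither was called in any comparison. All 3 theta unigenes had their highest count in fasting.

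Microsomal GSTs are membrane proteins unrelated in fold to the cytosolic classes, and the 4 unigenes of this class did not move together. CL3456.Contig1, named microsomal GST 1, had 1171 fragments in normal feeding, 2659 in fasting, 970 in cold stress and 716 in thermal stress and was higher in fasting by 2.03-fold (interval 1.90 to 2.18). Its companion contig CL3456.Contig2 had 447, 483, 281 and 119 fragments in the same order and was lower in thermal stress by 3.85-fold. Most reads of both contigs fitted other places too, and their summed fragments gave log2 ratios of 0.80 in fasting and -0.99 in thermal stress, both under the 2-fold rule. Unigene1569, named microsomal GST 3, had 2172 fragments in normal feeding, 1781 in fasting, 1321 in cold stress and 1348 in thermal stress. CL3789.Contig2, named microsomal GST 3 in Swiss-Prot and 2 in Nr, had 447, 300, 370 and 202 fragments and was lower in thermal stress by 2.27-fold. These last 2 unigenes had their highest count in normal feeding, unlike the theta and alpha unigenes.

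**Figure D2:**
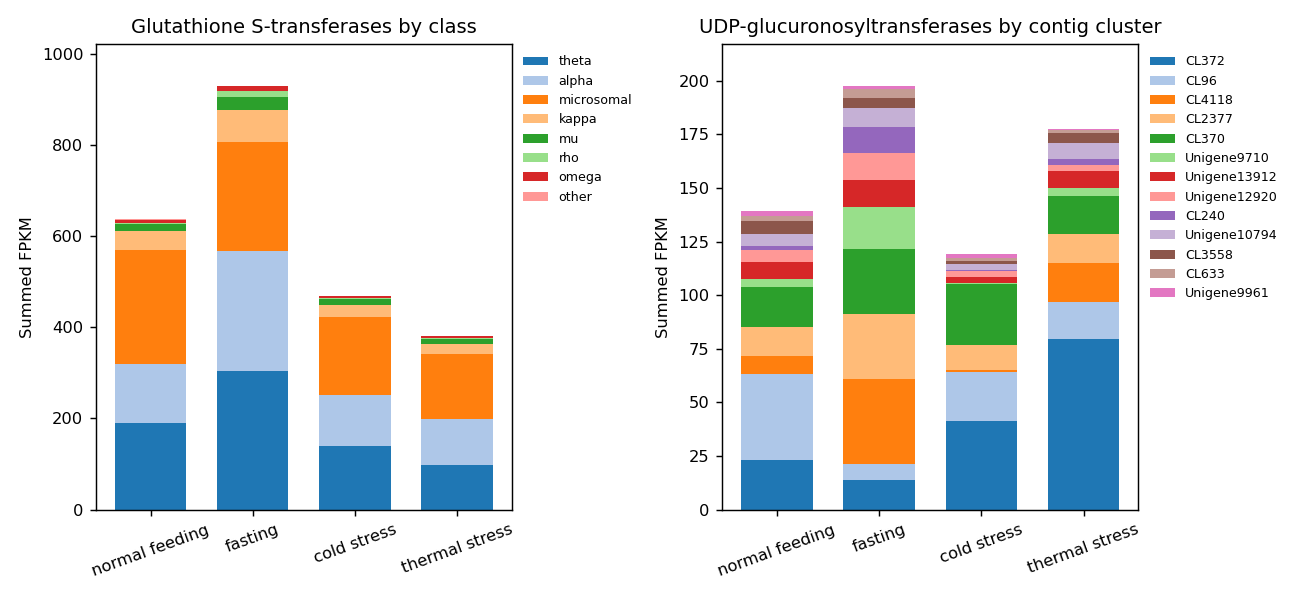
Stacked bars of summed FPKM (vertical axes) by GST class on the left and by UGT contig cluster on the right, with 1 bar per library and clusters reduced to their member contigs. Theta, alpha and microsomal classes make up most of each GST bar, while the leading UGT cluster changes between CL96, CL4118 and CL372.

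The kappa, mu, omega and rho classes were less abundant. GST kappa 1 (Unigene29805), an enzyme of mitochondria and peroxisomes, had 881 fragments in normal feeding, 1609 in fasting, 525 in cold stress and 458 in thermal stress. Its ratio was 1.64 (interval 1.51 to 1.78) in fasting and 0.508 (0.452 to 0.569) in thermal stress, the latter just inside the 2-fold rule. The mu unigene, Unigene14589, had 267 fragments in normal feeding, 592 in fasting, 256 in cold stress and 203 in thermal stress, and its fasting ratio of 1.99 lay just under the rule and passed it with TMM (log2 1.11), median-of-ratios (1.17) and pancreas-free scaling (1.08). Mu and kappa thus both had their highest count in fasting without being called. The omega unigenes CL4260.Contig1 and Unigene16368 had 78 and 44 fragments in normal feeding, and Unigene16368 was lower in cold stress by 2.04-fold (21 fragments).

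The rho class, described from fishes, showed the largest fasting ratio of any GST class. Its 5 unigenes summed to 28 fragments in normal feeding, 177 in fasting, 22 in cold stress and 52 in thermal stress. The class was higher in fasting by 5.66-fold (interval 3.79 to 8.77), and its ratios were 0.808 in cold stress and 1.81 in thermal stress. CL1625.Contig4 had 21, 70, 13 and 51 fragments and was higher both in fasting (2.99-fold) and in thermal stress (2.37-fold). CL1625.Contig1 had 3, 55, 6 and 0 fragments, a fasting ratio of 16.4 with a counting interval of 5.33 to 82.1. At least 89.7% of the reads of CL1625.Contig4 and 91.8% of those of CL1625.Contig1 fitted several places. Summed over its contigs, the CL1625 cluster was higher in fasting by 5.49-fold (interval 3.55 to 8.84) and in thermal stress by 2.07-fold (1.25 to 3.52). Unigene42317 had 4, 30, 3 and 1 fragments, and CL1625.Contig2 and CL1625.Contig3 had 18 and 4 fragments in fasting and 0 in the other libraries, the former at least 5.37-fold higher than in normal feeding at the floor of 3 fragments. In level the rho class was small, at 2.02 FPKM in normal feeding and 13.7 in fasting against 191 and 303 for theta.

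The unigene left without a class, Unigene36257, had an insect GST as its best match in Nr. It had 22 fragments in normal feeding and 0 in the other 3 libraries, at least 7.13-fold lower in each at the floor of 3 fragments. Whether it belongs to the fish was not tested.

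**Figure D3:**
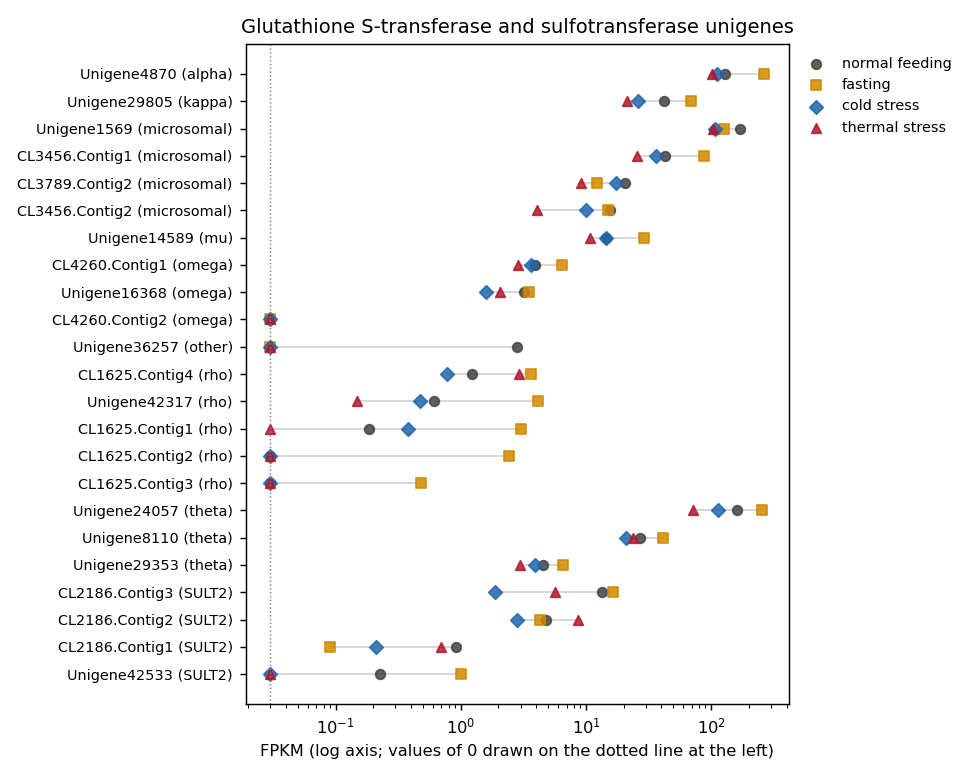
FPKM on a log axis (horizontal) of the 19 GST unigenes and 4 SULT unigenes in the 4 libraries, with values of 0 drawn on the dotted line. Fasting squares lie to the right for alpha, kappa, mu, theta and rho, and normal feeding circles lie to the right for Unigene1569 and CL3789.Contig2.

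The total of the UGT number stayed within 2-fold of normal feeding, while single UGT unigenes were called in both directions. K00699 held 5670 fragments in normal feeding, 8604 in fasting, 4486 in cold stress and 6573 in thermal stress, and the ratios of 1.36, 0.813 and 1.13 were all under the 2-fold rule. The 21 unigenes belong to 13 contig clusters or single unigenes. In fasting 5 were called higher and 7 lower, in cold stress 0 higher and 7 lower, and in thermal stress 3 higher and 3 lower. Over all unigenes 12.8% were called higher and 18.2% lower in fasting, 20.8% and 13.8% in cold stress, and 9.60% and 16.1% in thermal stress. In cold stress the UGT count was near the background of 34.6% only with both directions pooled. In thermal stress the pooled count was near the background of 25.7%, and so was the count of lower unigenes alone. In fasting 31.0% of all unigenes were called. All 7 UGT unigenes lower in fasting are contigs of the CL96 cluster, which share most of their reads. UGT names are best protein matches from other species, and for 4 of the 21 unigenes Swiss-Prot and Nr named different UGT families.

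Per unit of length, the CL96 cluster led in normal feeding, CL4118 in fasting and CL372 in both stress libraries. The CL96 cluster, 7 contigs named UGT2A1 or UGT2A2, held 28.9% of UGT FPKM in normal feeding and 3.75% in fasting. CL4118.Contig1 held 6.07% in normal feeding, 20.1% in fasting, 0.580% in cold stress and 10.3% in thermal stress. The CL372 cluster held 16.6% in normal feeding, 34.6% in cold stress and 44.9% in thermal stress. CL370.Contig2, named UGT2A2, was not called in any comparison and had 18.5 FPKM in normal feeding, 30.3 in fasting, 28.5 in cold stress and 17.4 in thermal stress.

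The CL96 cluster had 2199 fragments in normal feeding, 468 in fasting, 1163 in cold stress and 941 in thermal stress. All 3 treated libraries were under normal feeding, and the cluster was lower in fasting by 5.25-fold (interval 4.75 to 5.81) and in thermal stress by 2.39-fold (2.22 to 2.59). Its cold stress log2 ratio of -0.88 was not called with library totals. The cold stress shifts of -0.21 (TMM) and -0.18 (median-of-ratios) take it past the 2-fold rule. The most abundant contig, CL96.Contig7, had 1211, 113, 386 and 270 fragments and was lower in all 3, by 12.0-fold, 3.05-fold and 4.59-fold. All 7 contigs were called lower in fasting with library totals, with log2 ratios from -3.58 to -1.16. Among them were CL96.Contig3 at -2.50, CL96.Contig6 at -2.47, CL96.Contig1 at -2.02, CL96.Contig2 at -1.97 and CL96.Contig4 at -1.30. CL96.Contig5, at -1.16, lost its call with median-of-ratios factors (-0.98). The contigs share most of their reads, with at least 84.2% of reads at several places in each, and are better read as 1 cluster than as 7 genes.

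CL4118.Contig1, named UGT2A2 in Swiss-Prot and UGT2C1-like in Nr, had 401 fragments in normal feeding, 2099 in fasting, 32 in cold stress and 889 in thermal stress. It was higher in fasting by 4.69-fold (interval 4.21 to 5.23) and in thermal stress by 2.16-fold (1.92 to 2.44), and lower in cold stress by 12.2-fold (8.50 to 18.1). No read of this unigene fitted a second place. Among UGT unigenes, this one, CL240.Contig1 and Unigene9710 were called higher in fasting and lower in cold stress.

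CL240.Contig1, named UGT2B13, had 92 fragments in normal feeding, 759 in fasting, 18 in cold stress and 163 in thermal stress. It was higher in fasting by 7.39-fold (interval 5.95 to 9.28) and lower in cold stress by 4.97-fold. Unigene9710, named UGT2A1, had 119, 652, 2 and 117 fragments in the same order and was higher in fasting by 4.91-fold (4.03 to 6.02). Its 2 fragments in cold stress gave a share lower by a factor with a counting interval of 15.7 to 484. In both, as in CL4118.Contig1, fasting was the highest library and cold stress the lowest.

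The UGT1-named unigenes are matched to the family that in mammals holds the bilirubin-conjugating enzyme. The CL2377 cluster, named UGT1-1, had 500 fragments in normal feeding, 1262 in fasting, 437 in cold stress and 531 in thermal stress and was higher in fasting by 2.26-fold (interval 2.04 to 2.51). CL2377.Contig2 had 266, 762, 198 and 138 fragments, 2.57-fold higher in fasting, and CL2377.Contig1 had 234, 500, 239 and 393. Unigene10794 had 93, 164, 50 and 127 fragments and was not called with library totals, while in cold stress it passed the rule with TMM (log2 -1.06) and median-of-ratios factors (-1.04). CL633.Contig7, named UGT2A1 in Swiss-Prot and UGT1-5-like in Nr, had 93, 163, 53 and 57 and was not called either. Unigene9961 was lower in thermal stress, with 26 fragments in normal feeding and 5 in thermal stress. Unigene10794 and Unigene9961 carry a UGT1 name in Swiss-Prot and a UGT2 name in Nr. Summed over the 4 unigenes named UGT1 in Swiss-Prot, the class had a fasting ratio of 2.09 and stress ratios of 0.847 and 1.05.

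The CL372 cluster, named UDP-glucuronosyltransferase with no family, was the cluster highest under thermal stress. It had 697 fragments in normal feeding, 480 in fasting, 1234 in cold stress and 2487 in thermal stress, and was higher in thermal stress by 3.48-fold (interval 3.20 to 3.79). The cold stress ratio of 1.82 and the fasting ratio of 0.617 were not called. CL372.Contig1 had 586, 415, 1063 and 2124 fragments and CL372.Contig2 had 111, 65, 171 and 363, with thermal stress log2 ratios of 1.82 and 1.67. Both contigs kept the same order of libraries, with fasting lowest and thermal stress highest.

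Other UGT2-named unigenes were also lower in cold stress. CL3558.Contig1, named UGT2A3, had 267 fragments in normal feeding, 237 in fasting, 54 in cold stress and 209 in thermal stress and was 4.81-fold lower in cold stress. Unigene13912, named UGT2B15, had 115, 200, 43 and 115 fragments and was 2.60-fold lower. Unigene12920, named UGT2A1 in Swiss-Prot and UGT1-5-like in Nr, had 223, 557, 110 and 119 fragments and was higher in fasting by 2.24-fold. At least 80.4% of its reads fitted other places too. In cold stress it passed the rule with TMM (log2 -1.19) and median-of-ratios factors (-1.16) and not with library totals (-0.98). CL96.Contig4 was also lower in cold stress, with a log2 ratio of -1.78. Whether the cold stress ratios of these unigenes differ from their thermal stress ratios was not tested.

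**Figure D4:**
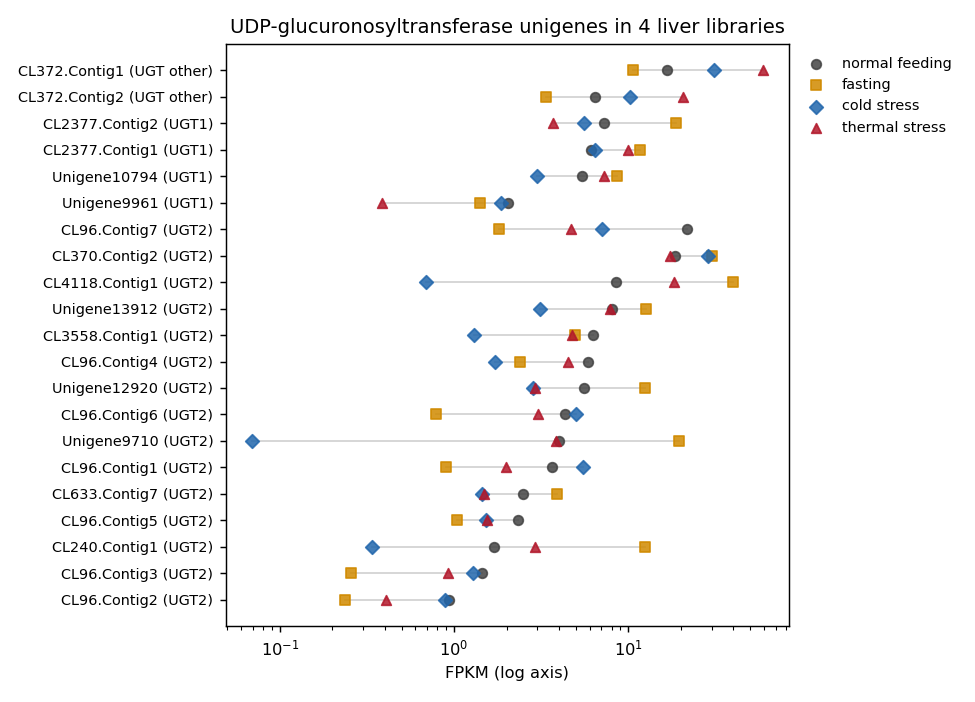
FPKM on a log axis (horizontal) of the 21 UGT unigenes in the 4 libraries, grouped by the family named in the annotation. The fasting squares lie at the far right for CL4118.Contig1, CL240.Contig1 and Unigene9710, with cold stress at the far left, and at the left for the CL96 contigs other than CL96.Contig4.

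The alcohol sulfotransferases were the only conjugation family whose total was called. K01015 held 518 fragments in normal feeding, 679 in fasting, 109 in cold stress and 348 in thermal stress. It was lower in cold stress by 4.62-fold (interval 3.75 to 5.74), and its ratios of 1.17 in fasting and 0.656 in thermal stress were not called. Its 4 unigenes are all named sulfotransferase 2B1, a cytosolic enzyme that in mammals sulfates cholesterol and other hydroxysteroids. The cold stress call was kept in every alternative tried, including reads that fit 1 place only (log2 -2.20) and an assumed coefficient of variation of 0.4 between libraries.

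Contigs of the same sulfotransferase cluster had different orders of libraries. CL2186.Contig3 had 421 fragments in normal feeding, 583 in fasting, 58 in cold stress and 183 in thermal stress and was lower in cold stress by 7.06-fold (interval 5.36 to 9.46) and in thermal stress by 2.36-fold (1.98 to 2.82). CL2186.Contig2 had 86, 85, 49 and 158 fragments and was not called. In thermal stress its FPKM of 8.66 was above the 5.66 of CL2186.Contig3, while in normal feeding the values were 4.83 and 13.3. Between 36.7% and 62.7% of the reads of these contigs fitted several places, and summed over the cluster the thermal stress log2 ratio was -0.60 and not called. CL2186.Contig1 and Unigene42533 had at most 10 fragments in any library, 9 and 2 of them in normal feeding and 1 and 10 in fasting.

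The transferases of proteins and sugar chains kept by the rule include both numbers called higher in cold stress. Dermatan 4-sulfotransferase 1 (Unigene9974), which sulfates dermatan sulfate chains, had 56 fragments in normal feeding, 45 in fasting, 164 in cold stress and 47 in thermal stress and was higher in cold stress by 3.01-fold (interval 2.21 to 4.15). B3GAT3, which completes the linker of proteoglycan chains, had 4, 15, 18 and 2 fragments, a ratio of 3.36 (1.07 to 13.9, exact p = 0.0357) in fasting and 4.63 (1.52 to 18.8) in cold stress. The sulfotransferase K08106, which adds a sulfate to chondroitin sulfate chains, had 98, 87, 167 and 53 fragments and was not called as a number. Of its unigenes CL3392.Contig2 had 86, 77, 149 and 44 fragments, Unigene9324 had 12, 9, 9 and 4, and CL3392.Contig1 had 0, 1, 9 and 5. Low counts thus stand behind most of these unigenes. Protein-tyrosine sulfotransferase, a Golgi enzyme, had 1115, 1609, 1181 and 1450 fragments with ratios between 1.09 and 1.29, and its cold stress log2 ratio of 0.12 turned to -0.08 with TMM factors. Unigene25673 held 1047 of its 1115 fragments in normal feeding, and the contigs CL2215.Contig2 and CL2215.Contig3 held the other 21 and 47.

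The genes that make the co-substrates, export the products or reverse the reactions were read from a list of 42 entries, of which 39 matched 44 KEGG numbers. Among the 44, 6 were called higher and 9 lower in fasting, 7 higher and 5 lower in cold stress, and 4 higher and 6 lower in thermal stress. The shares of all numbers were 10.1% higher and 21.0% lower in fasting, 17.0% and 9.15% in cold stress and 6.69% and 10.7% in thermal stress. With TMM or median-of-ratios factors the thermal stress split turned to 6 higher and 4 lower, and the fasting split became 7 and 7. With TMM factors the cold stress split became 6 and 6. The median log2 ratio of the list was -0.31, 0.14 and 0.02, beside -0.21, 0.21 and -0.13 over all numbers.

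Glutathione synthesis and recycling was the group with the most calls in fasting, where 6 of 8 numbers were lower and 0 were higher. Over all numbers 21.0% were called lower and 10.1% higher in fasting. The regulatory subunit of glutamate-cysteine ligase (GCLM), the enzyme that starts glutathione synthesis, had 339 fragments in normal feeding, 120 in fasting, 427 in cold stress and 261 in thermal stress, 3.15-fold lower in fasting. Glutathione synthase had 282, 106, 399 and 233 fragments, 2.97-fold lower, and glutathione reductase (GSR) had 160, 84, 172 and 200, 2.13-fold lower. Glutathione peroxidase K00432 had 15901, 4243, 16313 and 10147 fragments, 4.18-fold lower in fasting. These 4 genes had their lowest count in fasting. The phospholipid-hydroperoxide glutathione peroxidase K05361 did not share this order, with 7476, 14283, 6964 and 4386 fragments, and its fasting ratio of 1.71 was not called.

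The NADPH for glutathione reduction comes in part from the pentose phosphate pathway. Its 6-phosphogluconate dehydrogenase (PGD) had 2310 fragments in normal feeding, 223 in fasting, 1232 in cold stress and 1374 in thermal stress and was 11.6-fold lower in fasting, and glucose-6-phosphate dehydrogenase was 2.13-fold lower. The catalytic ligase subunit GCLC had 85, 98, 70 and 167 fragments and was not called with library totals. Its thermal stress ratio was 1.92 (interval 1.47 to 2.52). With library totals, 0 of the 8 numbers of glutathione synthesis and recycling were called in cold and thermal stress, against 26.2% and 17.4% of all numbers. These zeros rest on the scaling. PGD had a cold stress log2 ratio of -0.87, which shifts of -0.21 (TMM) and -0.18 (median-of-ratios) take past the 2-fold rule as lower. GCLC had a thermal stress log2 ratio of 0.94, which the shift of 0.15 with either factor takes past the rule as higher. ChaC, named for a family that degrades glutathione, had 787, 280, 1906 and 3089 fragments, lower in fasting (3.14-fold) and higher in cold (2.49-fold) and thermal stress (3.83-fold).

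UDP-glucuronic acid is made from glucose 1-phosphate through UDP-glucose. UDP-glucose pyrophosphorylase (UGP2), which also feeds glycogen synthesis, had 8333 fragments in normal feeding, 134595 in fasting, 13718 in cold stress and 28196 in thermal stress. It was higher in fasting by 14.5-fold and in thermal stress by 3.30-fold. UDP-glucose dehydrogenase (UGDH), the step committed to glucuronic acid, had 239, 316, 306 and 350 fragments and was not called. Of this pair, the call was at the step shared with glycogen, and the difference between the 2 ratios was not tested.

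On the sulfate side, PAPS synthase (PAPSS) had 493 fragments in normal feeding, 330 in fasting, 537 in cold stress and 843 in thermal stress and was not called. Cysteine dioxygenase (CDO1), which starts the oxidation of cysteine toward taurine and sulfate, had 4704, 585, 12930 and 17210 fragments, 8.98-fold lower in fasting, 2.83-fold higher in cold stress and 3.57-fold higher in thermal stress. Sulfite oxidase, the last step to sulfate, was lower in cold stress (log2 -1.79) and thermal stress (-1.20), with 246, 296, 69 and 110 fragments. In cold stress the sulfotransferase number and sulfite oxidase were both lower, while CDO1 was higher.

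Among efflux pumps, ABCC2, the canalicular exporter of glutathione and glucuronide conjugates into bile, had 453 fragments in normal feeding, 1298 in fasting, 531 in cold stress and 428 in thermal stress and was 2.57-fold higher in fasting. ABCG2, an exporter of sulfated compounds among others, had 88, 71, 726 and 104 fragments and was 8.48-fold higher in cold stress. ABCC3 was lower in cold stress with 28 and 13 fragments, and ABCC1 and ABCC4 were not called.

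KEAP1, the repressor of the transcription factor NRF2 that drives many GST and glutathione genes in mammals, had 266 fragments in normal feeding, 346 in fasting, 1049 in cold stress and 423 in thermal stress and was 4.05-fold higher in cold stress. The NRF2 number itself had log2 ratios of 0.36, 0.02 and 0.28 and was not called. Heme oxygenase, a known NRF2 target, was 2.65-fold higher in cold stress. Thioredoxin reductase, listed in the same group, went the other way with 657 fragments in normal feeding and 556 in cold stress, and was not called. The listed NQO1 matched no number. The aryl hydrocarbon receptor, which controls many conjugation genes, was not called in any comparison, with log2 ratios of -0.12, 0.15 and 0.06. ARNT-like 1 and ARNT2 entered the list because their definitions contain the name of this receptor, and whether they act with it here was not tested. ARNT-like 1 was higher in cold stress (log2 1.71), and ARNT2 was higher in cold stress (1.03) and lower in thermal stress (-1.58). The cold stress shifts of -0.21 (TMM) and -0.18 (median-of-ratios) take the cold stress ratio of ARNT2 under the 2-fold rule.

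Other conjugating and hydrolysing enzymes took different directions. Histamine N-methyltransferase had 1353 fragments in normal feeding, 8683 in fasting, 1626 in cold stress and 3321 in thermal stress, 5.75-fold higher in fasting and 2.40-fold higher in thermal stress. The bile acid conjugating enzyme BAAT was 3.77-fold higher in fasting (24 and 101 fragments), soluble epoxide hydrolase was 2.43-fold higher in fasting and 2.24-fold lower in thermal stress, and glycine N-acyltransferase was 2.29-fold lower in fasting. Arylamine N-acetyltransferase was lower in cold stress (log2 -1.09) and thermal stress (-1.54), as was catechol O-methyltransferase (-1.11 and -1.02), and thiopurine S-methyltransferase was lower in thermal stress (-1.05). Of the enzymes that remove conjugates, arylsulfatase A was higher in fasting (log2 1.01), steryl-sulfatase was lower in cold stress (-1.28) and beta-glucuronidase was not called.

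**Figure D5:**
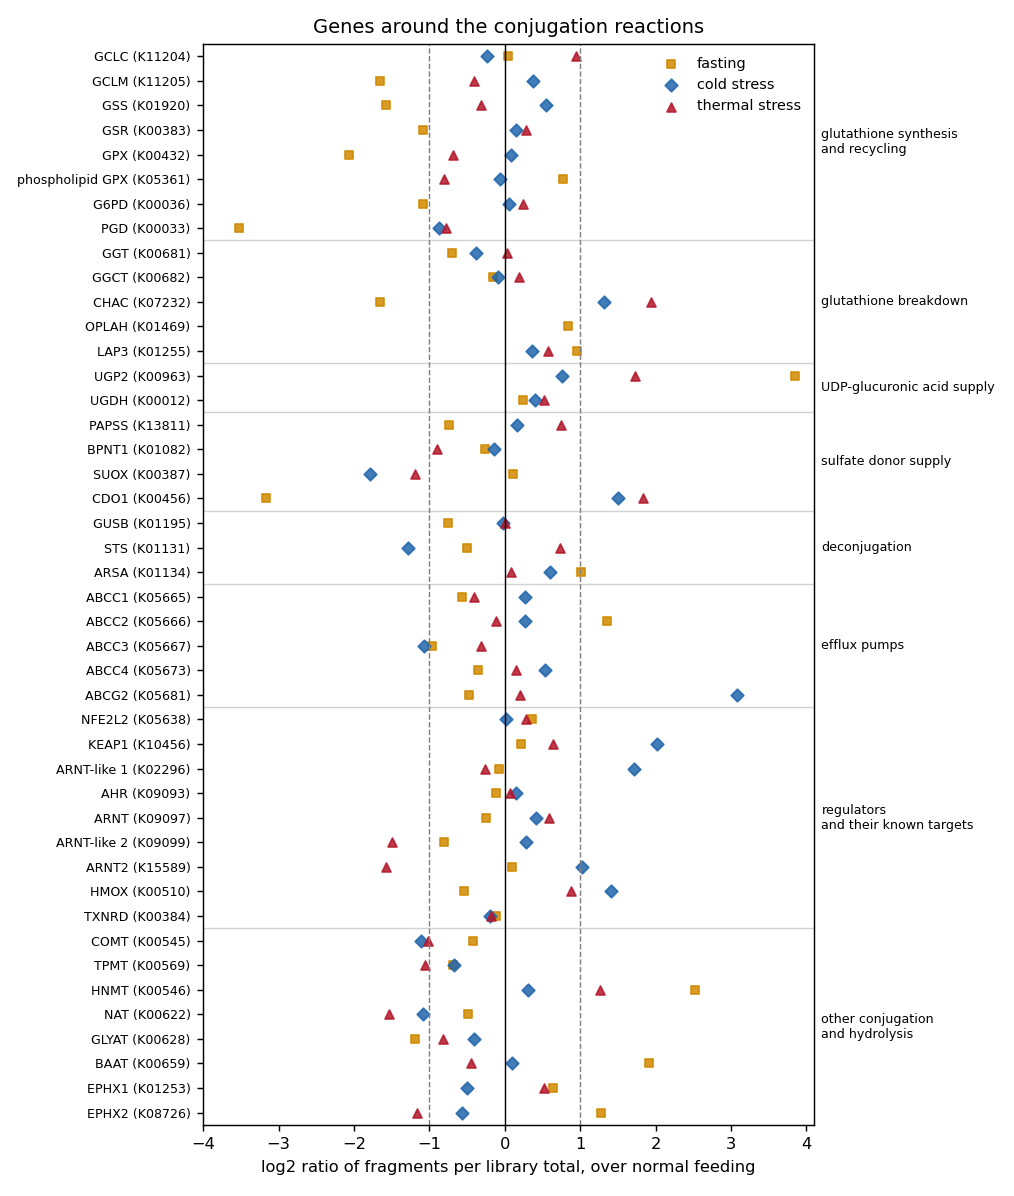
Log2 ratio of fragments per library total over normal feeding (horizontal axis) for the 44 numbers around the conjugation reactions, grouped by role, with dashed lines at 2-fold and ratios computed at no less than 3 fragments per library. The fasting squares lie at the left for 6 of the 8 numbers of glutathione synthesis and recycling, and UGP2 lies at 3.85.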

How the data were processed

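Members and supporting lists were chosen with earlier results of these data known. Reads of all libraries were assembled by the authors without a genome, with Trinity per their methods, and unigenes were annotated by BLASTx. The authors deposited counts of fragments for each unigene, not normalized; the aligner and counter are not given in the sources used here. FPKM values are those deposited by the authors, and recomputed values differed by rounding only. The deposited coverage tables count reads at 1 place or at several places per unigene. The authors' deposited comparison tables, with their own log2 ratios, p-values and false discovery rates, were not used, and 0 per-library columns were left unused.

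Fragments were summed by KEGG orthology number. Each treated library was compared with normal feeding by a two-sided exact binomial test over all numbers or unigenes, called at 2-fold and an unadjusted p under 0.05. The 95% Clopper-Pearson intervals cover counting error only. A count of 0 allows 3 fragments. With 1 library per condition, p-values compare libraries and not conditions. GST, UGT and SULT classes were read from Swiss-Prot or, with none, Nr descriptions. Named unigenes were those with at least 10% of their number in any library and, per comparison, the 5 largest called rises and falls with at least 10 fragments in both libraries; named supporting numbers were the 3 largest called changes in each direction, GCLC, GSR, UGDH, PAPSS, and others chosen for their role after their values were seen. The tests were checked on simulated counts. For the binomial test these were Poisson counts without spread between libraries, so that check covers counting error only. Alternatives were TMM (edgeR 4.0.16) and median-of-ratios (DESeq2 1.42.0) scaling, totals without the 10 most abundant unigenes, FPKM sums, uniquely placed reads, adjusted p, a filter at 20 fragments, folds of 1.5 and 3, and edgeR exact tests with an assumed or borrowed dispersion. Python 3.11.15, scipy 1.17.1 and R 4.3.3 were used.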

Additional observations from a re-analysis of the deposited data

How the results depend on the processing

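With 1 library per condition, no condition could be tested without a library, and no error between fish stands behind any count. No paired analysis was possible because no group has a second library. Totals without pancreas markers, sums over contig clusters and all alternatives for the supporting numbers were chosen after seeing the data. The counts of member unigenes called (22 in fasting, 13 in cold stress, 15 in thermal stress) stayed within 1.5 times under the alternatives run for them.

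The single member number called in fasting became 0 with uniquely placed reads, adjusted p, at least 20 fragments, an assumed coefficient of variation of 0.4 and a borrowed dispersion, and 3 at 1.5-fold. The 3 numbers of cold stress became 5 at 1.5-fold and 1 with the assumed variation. The 0 of thermal stress became 1 without the 10 most abundant unigenes, 2 with FPKM sums and 4 at 1.5-fold. Supporting calls in fasting went from 15 to 23 at 1.5-fold, 8 at 3-fold, 6 with assumed variation and 6 with borrowed dispersion, in cold stress from 12 to 4 at 3-fold and 3 with assumed variation, and in thermal stress from 10 to 20 at 1.5-fold, 3 at 3-fold and 3 with assumed variation.

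Across settings, 30 values of named log2 ratios changed sign. None of these had been called except CL2186.Contig1 in fasting. In fasting, CL3456.Contig2 became 0.075 (TMM), 0.13 (median of ratios), 0.045 (without pancreas markers) and 0.80 (cluster sum), CL2186.Contig2 0.0013 (median of ratios) and 0.22 (cluster sum), CL2186.Contig1 0.22 and CL633.Contig7 -0.11 (cluster sums). In cold stress, TMM and median of ratios gave -0.0835 and -0.0606 for K01021, -0.0913 and -0.0683 for Unigene25673, -0.14 and -0.11 for CL2377.Contig1 and -0.0352 and -0.0123 for CL2215.Contig2. TMM gave -0.00894 for CL96.Contig6, pancreas-free totals 0.0037 for Unigene14589, and cluster sums -0.30 for CL1625.Contig1, -0.15 for CL2377.Contig1 and -0.88 for CL96.Contig1 and CL96.Contig6. In thermal stress, TMM and median of ratios gave 0.056 and 0.062 for CL370.Contig2, 0.11 and 0.12 for Unigene13912 and 0.087 and 0.093 for Unigene9710, and cluster sums -0.60 for CL2186.Contig2 and 0.052 for CL2377.Contig2. Of the other values, 33 gained a call, 23 lost one and 1011 did neither; the cause was not tested.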

Other observations

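Some sulfotransferase unigenes outside the 53 members carry a general KEGG definition or none, and 4 of them are given here. Unigene7300, named sulfotransferase 1C1, a cytosolic enzyme of phenol sulfation, had 379 fragments in normal feeding, 139 in fasting, 360 in cold stress and 646 in thermal stress. It was 3.04-fold lower in fasting, and its ratios of 0.976 in cold stress and 1.66 in thermal stress were not called. Its order of libraries thus differed from that of the sulfotransferase 2B1 unigenes, which were lowest in cold stress when summed. Unigene11464, named cytosolic sulfotransferase 2, had 22, 11, 16 and 64 fragments. Unigene19077, named cytosolic sulfotransferase 1, had 11, 1, 1 and 23 fragments. Unigene1861, named amine sulfotransferase, had 4, 3, 24 and 17 fragments. Thermal stress was the highest library for 3 of these 4 unigenes. These unigenes were chosen after their values were seen and the difference from the member sulfotransferases was not tested.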
